A study of Mus musculus with 30 samples.

Results

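CD4 T cells whose T cell receptor occurred in 2 or more cells of a library were described in MOC1 tumours, a mouse oral squamous cell carcinoma line grown in C57BL/6J mice. The members were chosen from measured values: both receptor chains had to be identical in their CDR3 nucleotides in at least 2 cells of one library, and the cell had to hold at least 1 Cd4 UMI (a counted RNA molecule) and no Cd8a or Cd8b1 UMI. In this way 756 of 12709 cell barcodes were found, 178 in anti-PD-1, 272 in anti-CTLA-4 and 306 in isotype tumours. After cells with low gene numbers, high mitochondrial RNA or signs of a doublet were left out, 734 remained, with 174, 263 and 297 in anti-PD-1, anti-CTLA-4 and isotype tumours. They are called expanded cells. They were set beside 1331 of 1658 Cd4-positive cells whose receptor occurred once, called single cells, of which 452 came from anti-PD-1, 270 from anti-CTLA-4 and 609 from isotype tumours. Of the 1331, 234 had a TRB also found in another cell of the library (69, 43 and 122 in the same order). These are single only by the full set of both chains. Clone size, Cd4, Cd8a, Cd8b1 and Foxp3 set the groups, so their values are given as a description only.

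The 3 groups were tumour-bearing mice given anti-PD-1, anti-CTLA-4 or isotype control antibody by intraperitoneal injection on days 3, 6 and 9 after tumour inoculation. Each treatment had 1 RNA library and 1 receptor library, made with 10x 5-prime chemistry from tumour-infiltrating cells. The mice carried no labelled allele, their ages were not in the labels, and each library held 4 hashtags whose meaning the labels do not give. Hence treatments were compared without a test, and the 3 libraries served as replicates only for the difference between expanded and single cells within a library.

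CD4 T cells recognise peptides on MHC class II and help or restrain other immune cells. Conventional helper cells differentiate into types marked by their cytokines, such as interferon gamma, interleukin 4, 5 and 13, interleukin 17 or interleukin 21. Regulatory T cells, which carry the transcription factor Foxp3, hold down immune responses and are common in tumours. A T cell that divides passes its receptor to its daughters, so cells with the same pair of chains are taken to descend from one parent. The antibodies block PD-1 or CTLA-4, brakes on T cell activation, and CTLA-4 is abundant on regulatory T cells.

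The CDR3 is the stretch of each receptor chain that is built anew in each T cell by joining gene segments, and it served as the clone's name tag here. The sequences of the largest clone of each library, which carry the clonal results below, were read from the deposited receptor tables as coding DNA, 5′ to 3′. In the mouse annotation (RefSeq, GRCm38.p6) the TRA segments lie on chromosome 14 and the TRB segments on chromosome 6. Every sequence starts with the cysteine codon tgt and is in frame.
anti-PD-1 clone 1 TRA: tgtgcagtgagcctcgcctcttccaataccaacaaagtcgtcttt
anti-PD-1 clone 1 TRB: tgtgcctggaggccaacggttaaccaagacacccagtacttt
anti-CTLA-4 clone 1 TRA: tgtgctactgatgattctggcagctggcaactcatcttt
anti-CTLA-4 clone 1 TRB: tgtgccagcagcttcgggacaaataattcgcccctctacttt
isotype clone 1 TRA: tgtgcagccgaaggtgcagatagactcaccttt
isotype clone 1 TRB: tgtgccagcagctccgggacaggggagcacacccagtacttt
The anti-PD-1 clone used TRAV7-6 with TRAJ34 and TRBV31 with TRBJ2-5. The anti-CTLA-4 clone used TRAV8N-2 with TRAJ22 and TRBV4 with TRBJ1-6. The isotype clone used TRAV10 with TRAJ45 and TRBV5 with TRBJ2-5, so both its TRB and that of the anti-PD-1 clone end in TRBJ2-5.

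The RNA libraries held 24040712, 24728203 and 28466596 UMIs in anti-PD-1, anti-CTLA-4 and isotype tumours. Of the 8638 receptor cells with both chains, 98.7% had a barcode in the RNA data. Pairs of libraries shared 30 to 35 barcodes, and no member had both its barcode and its receptor in another library. All 7 CD4 T cell markers were detected in every group of cells, with sums of 3880 to 6120 CPM (UMIs relative to all UMIs of the same cells, in the usual CPM unit) in the expanded cells. The rule required a Cd4 UMI, so its detection was fixed and these sums are a description. In the expanded cells macrophage and monocyte markers summed to 170 to 585 CPM and B cell markers to 34.2 to 396 CPM. Cd4 itself was thinly covered: 28.2%, 29.7% and 45.1% of expanded cells in anti-PD-1, anti-CTLA-4 and isotype tumours passed with exactly 1 UMI, against 45.1%, 41.5% and 44.3% of single cells. A Cd4 UMI was also found in 3.5%, 2.48% and 11.4% of Cd8-positive expanded cells and in 14.5%, 18.0% and 22.0% of Cd8-positive single cells of the same libraries, in the same order. With at least 2 Cd4 UMIs required, the Foxp3-negative comparison below called 27 genes in place of 24, of which 18 were shared.

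Clones were small in all 3 tumours, and the largest were in anti-CTLA-4 and isotype tumours. There were 84 clones in anti-PD-1, 103 in anti-CTLA-4 and 146 in isotype tumours, of which 53, 59 and 86 had exactly 2 receptor cells, the smallest size the rule admits. No anti-PD-1 clone had 10 or more receptor cells, whereas 3 anti-CTLA-4 and 3 isotype clones did. The largest clones had 8 Cd4-positive members of 9 receptor cells in anti-PD-1, 30 of 42 in anti-CTLA-4 and 15 of 24 in isotype tumours. The anti-CTLA-4 clone made up 11.4% of that library's members. The same clones held 38, 61 and 108 further cells with no Cd4 and no Cd8 UMI, just outside the rule, and 1, 8 and 8 Cd8-positive cells.

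**Figure D1:**
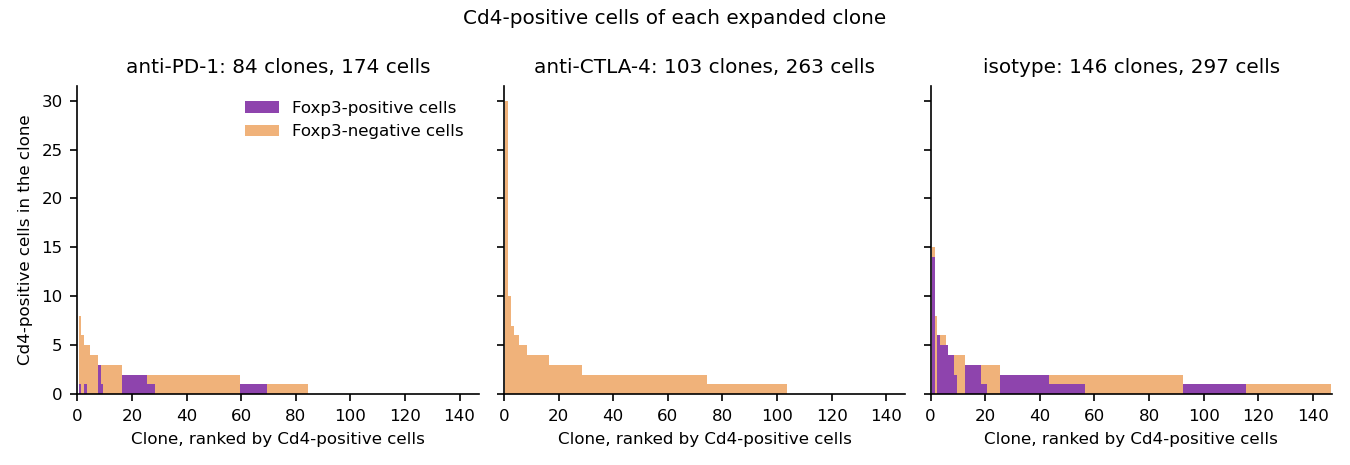
The 3 panels show the clones of anti-PD-1, anti-CTLA-4 and isotype tumours, ranked along the x axis by their Cd4-positive cells, with that number on the y axis; purple marks Foxp3-positive and orange Foxp3-negative cells. The anti-CTLA-4 panel has no purple and 1 clone of 30 cells, whereas the largest isotype clone of 15 cells is mostly purple.

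Expanded cells made up 27.8% of Cd4-positive receptor cells in anti-PD-1 tumours (exact binomial 95% interval 24.3 to 31.5%), 49.3% in anti-CTLA-4 tumours (45.0 to 53.7%) and 32.8% in isotype tumours (29.7 to 35.9%). These intervals cover counting error only. Across the hashtags of a library the share ran between 17.6 and 32.6% in anti-PD-1, 33.8 and 56.2% in anti-CTLA-4 and 27.7 and 36.5% in isotype tumours, so the hashtags of anti-CTLA-4 and isotype overlapped in range. A larger library finds more repeats. When repeats were counted among the kept Cd4-positive cells only, the share with all cells was 23.8% in anti-PD-1, 43.9% in anti-CTLA-4 and 26.8% in isotype tumours. By this narrower count at 533 cells a library, the number in anti-CTLA-4, it was 21.7% in anti-PD-1, 43.9% in anti-CTLA-4 and 19.8% in isotype tumours. The order of anti-PD-1 and isotype thus turned with cell number, while anti-CTLA-4 stayed above both.

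Foxp3-positive cells were a large share of the isotype expanded cells, a smaller one in anti-PD-1 and none in anti-CTLA-4 tumours. In anti-PD-1 tumours 37 of 174 expanded cells held a Foxp3 UMI (21.3%, 15.4 to 28.1%), against 29.4% (25.3 to 33.9%) of single cells. In anti-CTLA-4 tumours 0 of 263 expanded cells did, which allows a share of up to 1.14% taking 3 counts as the limit (exact binomial upper bound 1.39%), against 16 of 270 single cells (5.93%, 3.42 to 9.45%). In isotype tumours 137 of 297 expanded cells did (46.1%, 40.4 to 52.0%), against 47.9% (43.9 to 52.0%) of single cells. The expanded share was below the single share in all 3 libraries, by 5.3 points on average. This is given as a description, since 3 libraries cannot give an exact permutation p below 0.25.

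Cd8-positive cells of the same libraries are set beside these shares, as some Foxp3 UMIs in droplet data may come from free RNA. The source of the Foxp3 UMIs in Cd8-positive cells was not tested. There the share with a Foxp3 UMI was 1.67% in expanded and 9.14% in single cells of anti-PD-1 tumours, 1.13% and 3.09% in anti-CTLA-4, and 7.22% and 14.8% in isotype tumours. The share differed between expanded and single Cd8-positive cells of a library, so it is not 1 background value. For anti-CTLA-4 expanded Cd4-positive cells the upper bound of 1.39% lay above the 1.13%, so their 0 was not told apart from that share. Median depths were 4899 to 4941 UMIs a cell in expanded and 4628.5 to 5059 in single Cd4-positive cells, and 5169.5 to 7322 in Cd8-positive cells. At 2000 UMIs a cell the Cd4-positive shares were 6.19% in expanded and 21.6% in single cells of anti-PD-1, 0 and 1.75% in anti-CTLA-4, and 29.9% and 30.2% in isotype tumours.

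**Figure D2:**
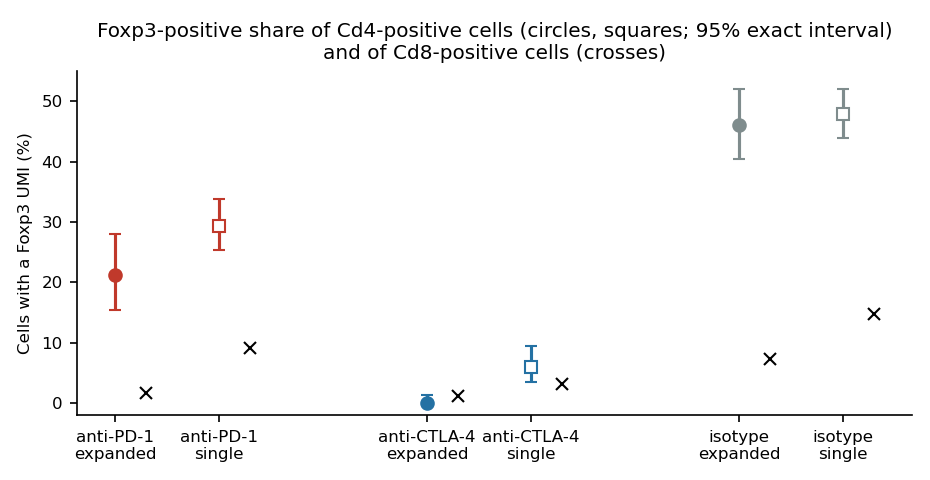
The y axis gives the percent of cells with a Foxp3 UMI in each library; filled circles are expanded and open squares single Cd4-positive cells with exact 95% binomial intervals, and crosses are Cd8-positive cells with the same clone status. Anti-CTLA-4 expanded cells lie at 0, anti-PD-1 at 21.3% and isotype at 46.1%.

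Most clones had members of 1 Foxp3 class. Of the clones with at least 2 kept members, 59 in anti-PD-1, 74 in anti-CTLA-4 and 92 in isotype tumours, all members were Foxp3-positive in 10, 0 and 28, all were negative in 43, 74 and 45, and 6, 0 and 19 were mixed. No chance value was computed for these counts. Clones with a Foxp3-positive member also held 16 Foxp3-negative members in anti-PD-1 and 22 in isotype tumours, whose status at this depth cannot be told apart from a Foxp3 transcript that was not captured. Even among the cells of member clones that fell outside the Cd4 threshold, Foxp3 was found in 12 of 38 in anti-PD-1, 0 of 61 in anti-CTLA-4 and 54 of 108 in isotype tumours.

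The largest clones differed in what they expressed, given here as sums of CPM over a gene list beside the other expanded cells of the same library. Anti-PD-1 clone 1, with 1 Foxp3-positive cell among 8, had 7580 CPM of the T helper 2 list, against 2380 CPM in the others. Its regulatory T cell list was higher too, at 10300 CPM against 8060 CPM. Anti-CTLA-4 clone 1 had no Foxp3-positive cell and 1920 CPM of the T helper 1 list, against 1290 CPM. Isotype clone 1, with 14 Foxp3-positive cells among 15, had 22800 CPM of the regulatory T cell list, against 9700 CPM. It had 14300 CPM of the cytotoxic and effector list, against 2710 CPM. The other isotype expanded cells held both Foxp3 classes, and none of the genes that set the groups was taken out of these sums. The regulatory T cell contrast of this clone is therefore not separate from the Foxp3 split. Isotype clone 2, with no Foxp3-positive cell among 8, had 3330 CPM of the T helper 2 list, against 1050 CPM. The largest clones of anti-PD-1 and isotype tumours were thus mostly Foxp3-negative and mostly Foxp3-positive cells.

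The kept members of a clone shared 1 hashtag in anti-PD-1 and isotype tumours, whereas many anti-CTLA-4 clones had members in several. Of the clones with at least 2 members, 0 of 59 in anti-PD-1 and 0 of 92 in isotype tumours had members in more than 1 hashtag, against 31 of 74 in anti-CTLA-4 tumours. When all receptor cells of a clone were counted, isotype clone 1 was in 2 hashtags. Of the 31 clones, 26 joined hashtags 1 and 2, 4 joined hashtags 3 and 4, and the largest clone was in all 4. What the hashtags stand for in this library was not given, so a clone in several hashtags cannot be read as a clone in several mice. Hashtags were also not shown to be independent, and the same clones feed several of them in anti-CTLA-4 tumours. Counts and ranges over hashtags are therefore a description only, not replicates. Across libraries, 4 anti-PD-1 clones, 0 anti-CTLA-4 clones and 1 isotype clone had a receptor found in another library.

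Receptor gene use was broad. TRBV13-2 was used by 15.5% of clones in anti-PD-1, 6.8% in anti-CTLA-4 and 14.4% in isotype tumours, against 13.5%, 13.0% and 12.6% of single cells. TRBJ2-7 was used by 13.1%, 16.5% and 24.7% of clones, against 18.8%, 16.3% and 18.4% of single cells. TRAV11, the V segment of the invariant natural killer T cell receptor, was used by no expanded clone. It was rare in single cells too, at 0.664% in anti-PD-1 and 1.64% in isotype tumours. The median CDR3 had 42 bases in both chains and all libraries, apart from 39 bases for TRA of expanded anti-PD-1 cells.

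Foxp3-negative expanded cells carried more RNA of the effector genes Nkg7 and Klrc1 and of the inhibitory receptors Lag3, Pdcd1 and Havcr2, and less of Klf2, Tcf7, Satb1 and Igfbp4 of the naive and memory list, than Foxp3-negative single cells. The sums covered 137 expanded and 319 single cells in anti-PD-1, 263 and 254 in anti-CTLA-4, and 160 and 317 in isotype tumours. With edgeR's quasi-likelihood test and library as a block, 14 genes (0.172% of 8119 tested) were higher and 10 (0.123%) lower at a Benjamini-Hochberg adjusted p of 0.05 or less, and 748 had an unadjusted p of 0.05 or less. The p-values rest on the spread between 3 libraries that differ in treatment, which edgeR draws in part from all genes together. A small p therefore does not show by itself that the libraries agree on a gene. Of these 24 genes, 9 passed in DESeq2 as well, and leaving out the anti-CTLA-4, isotype or anti-PD-1 library gave 138, 99 and 17 genes.

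Among effector genes, Nkg7, a granule membrane protein of cytotoxic lymphocytes, had 1270 CPM in expanded and 642 CPM in single cells of anti-PD-1, 551 and 278 CPM in anti-CTLA-4, and 566 and 302 CPM in isotype tumours. It rose in all 3 libraries by nearly the same amount (log2 fold 0.93 ± 0.08 SE, adjusted p = 0.0002 by edgeR) and was higher in 11 of 12 hashtags. Klrc1, which encodes the NKG2A inhibitory receptor, had 118 and 49.8 CPM in expanded and single cells of anti-PD-1, 142 and 67.1 CPM in anti-CTLA-4, and 40.6 and 21.2 CPM in isotype tumours (log2 fold 1.09 ± 0.13, adjusted p = 0.0017), and was higher in 9 of 12 hashtags. Ccl3, a chemokine, moved the other way in 2 libraries, with 176 CPM in expanded and 483 CPM in single cells of anti-PD-1 and 32.5 and 108 CPM in isotype tumours; it was at 0.685 and 0 CPM in anti-CTLA-4 tumours. Of the 19 tested genes of the cytotoxic and effector list, 2 were called higher and 1 lower, with a median log2 fold of 0.37, beside 0 for all tested genes; the library medians were 0.06 in anti-PD-1, 0.78 in anti-CTLA-4 and 0.41 in isotype tumours.

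The 3 genes called higher in the checkpoint and exhaustion list encode inhibitory receptors. Lag3, which binds MHC class II, had 815 and 391 CPM in expanded and single cells of anti-PD-1, 90.4 and 66.4 CPM in anti-CTLA-4, and 383 and 229 CPM in isotype tumours (log2 fold 0.77 ± 0.12, adjusted p = 0.0093, edgeR). It was higher in 12 of 12 hashtags. Pdcd1, which encodes PD-1, had 900 and 514 CPM in expanded and single cells of anti-PD-1, 535 and 347 CPM in anti-CTLA-4, and 670 and 520 CPM in isotype tumours (log2 fold 0.57 ± 0.1, adjusted p = 0.018). With at least 2 Cd4 UMIs its adjusted p was 0.095 in edgeR. Havcr2, which encodes TIM-3, had 87.3 and 39.6 CPM in expanded and single cells of anti-PD-1, 26.7 and 13.1 CPM in anti-CTLA-4, and 67.3 and 36.2 CPM in isotype tumours (log2 fold 0.99 ± 0.17, adjusted p = 0.019). Ctla4 did not pass, with a log2 fold of 0.35 and an adjusted p of 0.12 in edgeR. Of 19 tested genes of the list, 13 lay above 0, with a median of 0.11 in the fit and of 0.33 in anti-PD-1, -0.04 in anti-CTLA-4 and 0.12 in isotype tumours.

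Genes of naive and memory T cells were lower as a group. Of the list's 18 genes 18 were tested, all lay below 0 in the fit and 4 were called lower, with a median log2 fold of -0.71; the library medians were -1.02 in anti-PD-1, -0.43 in anti-CTLA-4 and -0.49 in isotype tumours. Klf2, a transcription factor that keeps T cells circulating, had 149 and 312 CPM in expanded and single cells of anti-PD-1, 24.0 and 51.1 CPM in anti-CTLA-4, and 231 and 383 CPM in isotype tumours (log2 fold -0.96 ± 0.12, adjusted p = 0.0017, edgeR). It was lower in 12 of 12 hashtags. Tcf7, which encodes TCF1, a factor of naive and stem-like T cells, had 46.2 and 122 CPM in expanded and single cells of anti-PD-1, 58.9 and 103 CPM in anti-CTLA-4, and 84.7 and 125 CPM in isotype tumours (log2 fold -0.91 ± 0.15, adjusted p = 0.013). Satb1, a chromatin organiser, fell by 0.85 on the log2 scale. Igfbp4, a gene of naive T cells, was at 0, 0 and 1.16 CPM in expanded cells of anti-PD-1, anti-CTLA-4 and isotype tumours, against 25.2, 2.19 and 31.2 CPM in single cells.

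The other called genes had varied roles. Oxsr1, a stress-response kinase (log2 fold 1.18), Plk2, a polo-like kinase (1.24), Ifitm1, an interferon-induced membrane protein (1.03), and Lgals3, which encodes galectin 3 (0.96), rose. They were higher in 10, 11, 7 and 10 of 12 hashtags, and the log2 ratio of Ifitm1 was 0.34 in the anti-PD-1 library. Calca, which encodes calcitonin and CGRP, also rose (1.43) and was higher in 9 of 12 hashtags, but 77.7% of its UMIs in anti-PD-1 and 45.4% in isotype expanded cells came from 1 cell, and its log2 ratio in anti-CTLA-4 was 0.25. Dusp10, a phosphatase of stress kinases (-0.83), Ramp3, a receptor-modifying protein (-0.64), and Rflnb (-1.35) fell. Il2, the T cell growth factor, had 5.13 and 33.6 CPM in expanded and single cells of anti-PD-1, 6.16 and 11.7 CPM in anti-CTLA-4, and 3.48 and 69.8 CPM in isotype tumours (log2 fold -2.69 ± 0.42, adjusted p = 0.013, edgeR). It did not keep this direction with clones defined by TRB alone (0.89) or with doublet-like cells kept (0.07).

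No other list had a gene called higher. The 16 glycolysis and hypoxia genes all lay above 0 with a median of 0.27, and 21 of 26 interferon response genes lay below 0 with a median of -0.29, none of them past the threshold. The regulatory T cell list, whose genes are shared with activated cells, had a median of 0.04 over 18 tested genes with none called. The T helper 2 list had library medians of opposite sign, 0.8 in anti-PD-1, -1.34 in anti-CTLA-4 and 0.55 in isotype tumours, and none of its 9 genes was called.

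**Figure D3:**
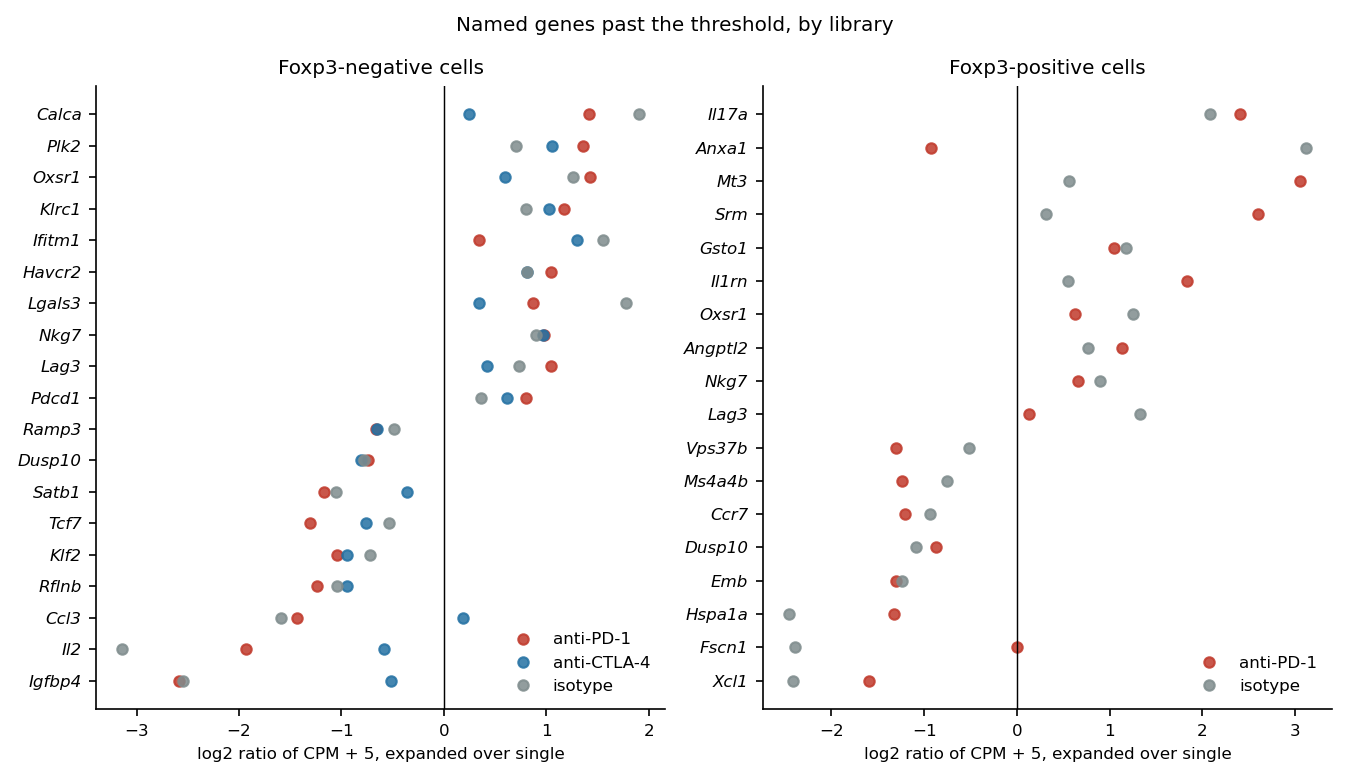
Points give the log2 ratio of CPM + 5 of expanded over single cells for each library on the x axis, for the named genes past the threshold on the y axis; the left panel shows Foxp3-negative cells in 3 libraries and the right panel Foxp3-positive cells in 2. Nkg7 and Klf2 keep close values in all 3 libraries, whereas Anxa1 lies on opposite sides of 0.

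**Figure D4:**
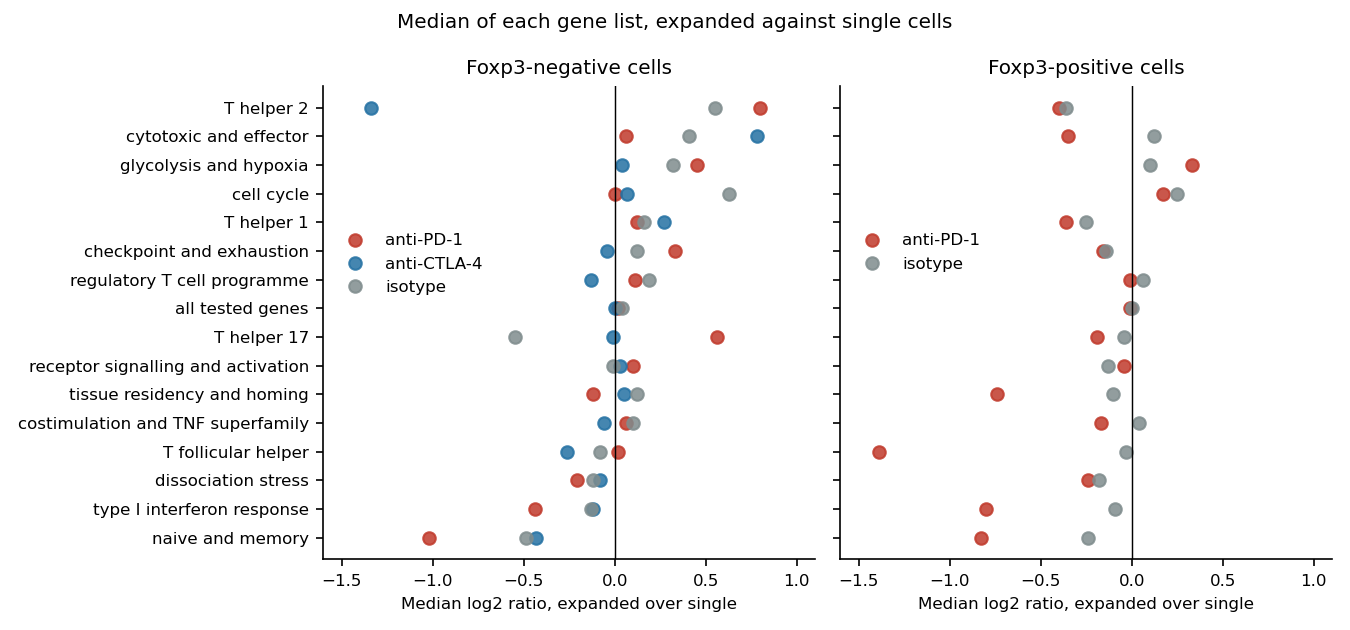
The x axis gives the median log2 ratio of expanded over single cells for each gene list and library, with Foxp3-negative cells on the left and Foxp3-positive cells on the right. The naive and memory list is the lowest in Foxp3-negative cells in all 3 libraries apart from the T helper 2 list of anti-CTLA-4 and the T helper 17 list of isotype.

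Larger clones were not uniformly further from single cells. In Foxp3-negative cells of clones of 3 or more, of 2 and of 1 receptor cells, Nkg7 had 1410, 1060 and 642 CPM in anti-PD-1, 636, 380 and 278 CPM in anti-CTLA-4, and 566, 567 and 302 CPM in isotype tumours. Klf2 had 106, 213 and 312 CPM in anti-PD-1, 20.6, 30.7 and 51.1 CPM in anti-CTLA-4, and 206, 255 and 383 CPM in isotype tumours. Between the larger classes the Poisson intervals of Klf2 overlapped in anti-CTLA-4 (12.6 to 31.8 and 17.2 to 50.6 CPM) and isotype tumours (165 to 254 and 210 to 307 CPM) but not in anti-PD-1. Those of Nkg7 were apart in both antibody-treated libraries and overlapped in isotype. Clone size is the rule itself, so no test was made.

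Foxp3-positive expanded cells could be tested in anti-PD-1 and isotype tumours alone, with 37 expanded and 133 single cells in anti-PD-1 and 137 and 292 in isotype tumours. In edgeR 10 genes (0.141% of 7069 tested) were higher and 10 (0.141%) lower, and 337 had an unadjusted p of 0.05 or less. With 2 libraries the fit has 1 residual degree of freedom, and DESeq2 called 0 genes. The edgeR p-values there lean on a spread shared over all genes. Anxa1 was called although its log2 ratio was -0.93 in anti-PD-1 and 3.12 in isotype tumours. With 1 library left out no test remains, so these calls are weaker evidence than those of Foxp3-negative cells.

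Of 18 tested regulatory T cell genes none was called between expanded and single Foxp3-positive cells, with a median log2 fold of 0.02. In the fit 10 of them lay above 0 and 8 below. Il10 had a log2 fold of 0.81 without passing. It had 83.8 and 97.9 CPM in expanded and single cells of anti-PD-1 and 134 and 48.1 CPM in isotype tumours. With 1 residual degree of freedom, a gene that is not called cannot be taken as equal. Ccr7, the receptor that guides T cells to lymph nodes, had 107 and 256 CPM in expanded and single cells of anti-PD-1 and 228 and 441 CPM in isotype tumours (log2 fold -1.06 ± 0.2, adjusted p = 8e-05, edgeR). Emb, an adhesion glycoprotein, had 90.5 and 231 CPM in expanded and single cells of anti-PD-1 and 129 and 312 CPM in isotype tumours (log2 fold -1.31 ± 0.21, adjusted p = 4e-07). All 15 tested genes of the naive and memory list lay below 0, with a median of -0.52 and 1 called.

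Nkg7, Lag3, Oxsr1 and Dusp10 were called in the same direction as in Foxp3-negative cells. With at least 2 Cd4 UMIs the calls of Nkg7 and Lag3 were lost (log2 fold 0.41 and 0.85, edgeR adjusted p of 1 for both). Nkg7 had 731 and 462 CPM in expanded and single Foxp3-positive cells of anti-PD-1 and 397 and 211 CPM in isotype tumours (log2 fold 0.79 ± 0.18, adjusted p = 0.0064, edgeR), though it was higher in only 2 of 5 hashtags. Lag3 had 761 and 696 CPM in expanded and single cells of anti-PD-1 and 508 and 199 CPM in isotype tumours, so that most of its rise lay in the isotype library, and it was higher in 3 of 5 hashtags. Il1rn, the interleukin 1 receptor antagonist, rose by a log2 fold of 1.16, with a log2 ratio of 1.83 in anti-PD-1 and 0.55 in isotype. Of its UMIs in expanded cells, 43.8% in anti-PD-1 came from 1 clone and 48.2% in isotype from 1 cell. Il17a, the T helper 17 cytokine, had 33.5 and 2.25 CPM in expanded and single cells of anti-PD-1 and 25.0 and 2.11 CPM in isotype tumours, from 2 anti-PD-1 and 7 isotype expanded cells. Anxa1 had the smallest adjusted p of these genes but rested on 1 isotype cell with 95.1% of its UMIs in that library, and it was at 0 in anti-PD-1 expanded cells. Fscn1, with 0 CPM in both groups of anti-PD-1 tumours, likewise rested on the isotype library. Gsto1 was higher in both libraries (log2 ratio 1.05 in anti-PD-1 and 1.18 in isotype) but in only 2 of 5 hashtags. Of its UMIs in isotype expanded cells 78.5% came from 1 cell, and its log2 fold was -0.13 without cells holding genes of other cell types.

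Between treatments each side was 1 library, so that genes were counted as different at 2-fold or more on the log2(CPM + 5) scale with at least 20 CPM in either, with no test. Both comparisons share the isotype library. In Foxp3-negative expanded cells 85 genes were higher (1.53% of 5541) and 102 lower (1.84%) in anti-PD-1 against isotype, whereas in single cells 37 of 5371 were higher (0.689%) and 23 lower (0.428%). In anti-CTLA-4 against isotype 72 genes were higher (1.33% of 5424) and 235 lower (4.33%) in expanded cells, and 51 of 5376 were higher (0.949%) and 153 lower (2.85%) in single cells. The anti-PD-1 and isotype expanded sums hold fewer cells than the single sums, and whether the counts differ between expanded and single cells was not tested.

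Anti-PD-1 expanded Foxp3-negative cells had more RNA of interferon gamma and of the chemokines Ccl1, Ccl3, Ccl4 and Xcl1 than isotype ones, with most of the Xcl1 from 1 cell. The chemokine Cxcl10 was lower, but most of its isotype UMIs came from 1 cell. In single cells Cxcl10 went the other way and was higher in anti-PD-1 than in isotype tumours. Ifng, the T helper 1 cytokine, had 449 CPM (exact Poisson 95% interval 403 to 499) in anti-PD-1, against 92.8 CPM (73.6 to 116) in isotype tumours, in 53 and 28 cells. Its hashtags ran between 321 and 834 CPM in anti-PD-1 and between 66.5 and 129 CPM in isotype tumours, without overlap. In single cells Ifng was 413 against 67.3 CPM, so the difference was of like size there. Ccl4, an inflammatory chemokine, had 490 against 78.9 CPM in expanded cells and 907 against 77.9 CPM in single cells; its hashtags in expanded cells, 0 to 1310 and 0 to 187 CPM, overlapped.

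Others of the higher genes were held by few cells. Ccl1 had 784 against 72 CPM from 22 and 21 cells, with 36.2% of its anti-PD-1 UMIs in 1 cell. Its hashtags, 78.5 to 1380 and 36.3 to 126 CPM, overlapped, and in single cells Ccl1 was at 458 against 486 CPM. Xcl1 had 162 against 10.4 CPM with 83.3% in 1 cell, and Hdc, the histamine-forming enzyme, 114 against 4.64 CPM with 68.5% in 1 cell. Il5, an eosinophil growth factor, had 177 against 46.4 CPM from 11 and 5 cells. Il21, the cytokine of follicular helper cells, had 28.2 CPM (17.7 to 42.8) in 16 anti-PD-1 cells, against 2.32 CPM (0.281 to 8.38) in 2 isotype cells. Lag3 had 815 CPM (753 to 881) in anti-PD-1, against 383 CPM (343 to 427) in isotype tumours, and its hashtags, between 629 and 1150 CPM and between 337 and 414 CPM, did not overlap.

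The naive and memory list lay lower in anti-PD-1 expanded Foxp3-negative cells: 0 of 14 counted genes lay above 0, 2 passed 2-fold and the median was -0.63, beside -0.09 in single cells and -0.02 for all genes counted. All 16 glycolysis and hypoxia genes lay above 0, with a median of 0.47 and 1 gene past 2-fold; the median in single cells was 0.4.

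The lowest genes of anti-PD-1 against isotype were not T cell genes. Lyz2, a lysozyme of myeloid cells, was at 0 in anti-PD-1, against 204 CPM in isotype tumours, at least 53-fold lower against a floor of 3 counts, but 97.2% of the isotype UMIs came from 1 cell. H2-Aa, Tyrobp, Cd74 and Cxcl10 behaved alike, with 55 to 100% of their isotype UMIs in 1 cell. Macrophage markers summed to 209 CPM in anti-PD-1, 170 CPM in anti-CTLA-4 and 585 CPM in isotype expanded Foxp3-negative cells, and 2 isotype cells of the 160 held 5 or more UMIs of genes of other cell types. Without these 2 cells the log2 ratio was -0.92 for Cd74 and -1.94 for Cxcl10, in place of -3.53 and -3.74; this alternative was chosen after the values were seen.

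Anti-CTLA-4 expanded Foxp3-negative cells had less RNA of T helper 2 cytokines, of regulatory T cell genes and of interferon response genes than isotype ones. All 8 counted genes of the T helper 2 list were at least 2-fold lower, with a median log2 ratio of -1.74, beside -0.05 in single cells and -0.09 for all genes counted. Il13, the cytokine of mucus and alternative macrophage activation, had 20.5 CPM (13.9 to 29.3) in anti-CTLA-4, against 527 CPM (480 to 578) in isotype tumours, where 15 cells held it and hashtags ran between 0 and 829 CPM. In single cells Il13 had 145 against 212 CPM. Areg, a growth factor of tissue repair, had 80.1 against 624 CPM in expanded cells and 248 against 185 CPM in single cells. In isotype expanded cells 34.6% of the Areg UMIs came from 1 cell, and hashtags of 56.7 to 130 CPM in anti-CTLA-4 and 66.5 to 1200 CPM in isotype overlapped. The difference between expanded and single cells has 1 library on each side and was not tested.

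The regulatory T cell list was lower although every cell compared lacked a Foxp3 UMI: 11 of 18 counted genes were at least 2-fold lower and 1 higher, with a median of -1.66, beside -1.03 in single cells. Itgae, the integrin CD103, had 1.37 CPM (0.166 to 4.95) in 2 anti-CTLA-4 cells, against 107 CPM (86.1 to 131) in 42 isotype cells. Il10, an anti-inflammatory cytokine, was at 0, against 48.7 CPM, at least 23.7-fold lower. Tnfrsf9, which encodes the costimulatory receptor 4-1BB, had 110 CPM in anti-CTLA-4, against 622 CPM in isotype tumours, and hashtags of 59.1 to 162 and 304 to 765 CPM did not overlap. Isotype Foxp3-negative cells included 22 from clones with a Foxp3-positive member. Without every clone in which any receptor cell held a Foxp3 UMI, which removes more cells than these 22, the log2 ratio was -3.49 for Itgae, -3.2 for Il10 and -2.02 for Tnfrsf9, in place of -4.13, -3.43 and -2.45; this alternative too was chosen after the values were seen.

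Of 18 counted interferon response genes 12 were at least 2-fold lower, with a median of -1.25 in expanded and -1.14 in single cells. Rtp4, an interferon-induced gene, had 2.74 CPM in anti-CTLA-4, against 61.5 CPM in isotype expanded cells, and Ifit1, which binds viral RNA, 4.79 against 65.0 CPM. Klf2 had 24.0 against 231 CPM, and 6 of 14 naive and memory genes passed 2-fold lower. Lag3 had 90.4 CPM (75.6 to 107) in anti-CTLA-4, against 383 CPM (343 to 427), and Penk, which encodes proenkephalin, 47.2 against 1150 CPM. For Penk 62.6% of the isotype UMIs came from 1 cell, and hashtags of 29.6 to 68.5 and 53.1 to 2310 CPM overlapped. Lag3 and Penk were lower in single cells too, with Lag3 at 66.4 against 229 CPM and Penk at 46.0 against 777 CPM.

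Named genes higher in anti-CTLA-4 expanded cells included receptor subunits, a protease inhibitor, an RNA-binding protein and a granzyme. The cytotoxic and effector list as a whole had 4 of 17 counted genes at least 2-fold higher and 4 lower. Il12rb2, a subunit of the interleukin 12 receptor, had 104 CPM (88.2 to 122) in 100 anti-CTLA-4 cells, against 41.8 CPM (29.3 to 57.8) in 21 isotype cells, with hashtags of 62.1 to 136 and 9.51 to 91.8 CPM that overlapped. Il18rap, a subunit of the interleukin 18 receptor, had 108 against 36.0 CPM, and its anti-CTLA-4 hashtags of 100 to 111 CPM lay above the isotype ones of 27.2 to 76.0 CPM. Klrd1, which encodes CD94, the partner of NKG2A, had 210 against 61.5 CPM with hashtags that did not overlap, and Serpinb1a, an inhibitor of proteases, 236 against 45.3 CPM. In single cells Il12rb2 had 92.7 against 20.6 CPM, Il18rap 66.4 against 38.0 CPM, Klrd1 120 against 40.5 CPM and Serpinb1a 215 against 25.6 CPM. Rbm47, an RNA-binding protein, had 45.2 CPM in 48 cells, against 0, at least 13.0-fold higher. Gzmc, a granzyme, had 67.1 against 1.16 CPM, with 69.4% of its anti-CTLA-4 UMIs in 1 cell. Of 11 counted T helper 1 genes 3 passed 2-fold higher and 0 lower, with a median of 0.5.

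**Figure D5:**
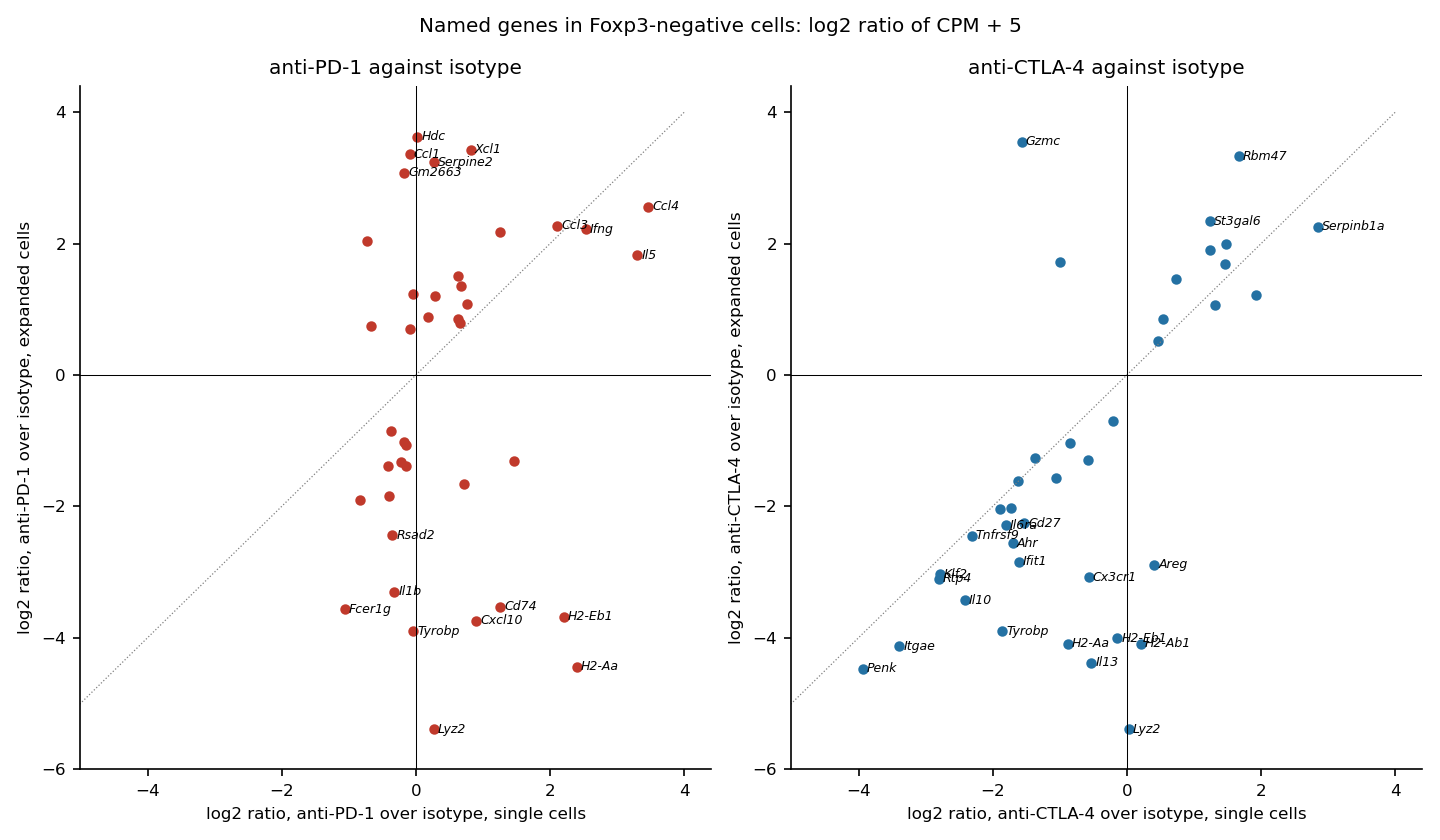
Each point is a named gene in Foxp3-negative cells, with its log2 ratio of CPM + 5 against isotype in single cells on the x axis and in expanded cells on the y axis, for anti-PD-1 on the left and anti-CTLA-4 on the right; the dotted line marks equal ratios. Penk, Itgae and Klf2 lie near the line, whereas Il13 and Areg in anti-CTLA-4 and Ccl1 and Hdc in anti-PD-1 lie far from it.

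In Foxp3-positive expanded cells 136 genes (2.3% of 5923) were at least 2-fold higher and 295 (4.98%) lower in anti-PD-1 against isotype, with 11 of 5554 (0.198%) and 62 (1.12%) in single cells; the anti-PD-1 sum rests on 37 cells. None of the 18 counted genes of the regulatory T cell list passed 2-fold, and their median was 0.06. Areg had 841 CPM in anti-PD-1, against 287 CPM, and Batf, a transcription factor of activated T cells, 469 CPM (395 to 554), against 220 CPM (192 to 251). Of 27 cell cycle genes 8 were lower, with a median of -0.49, and Tpx2, a spindle protein, had 6.7 against 57.0 CPM. The lowest genes, Sprr1a and Krt14, which mark squamous epithelium, were at 0, against 258 and 110 CPM, with 100% and 96.4% of the isotype UMIs in 1 cell. Carcinoma cell markers summed to 80.4 CPM in anti-PD-1 and 248 CPM in isotype cells, and 4 isotype cells held 5 or more UMIs of genes of other cell types. Without such cells 413 genes passed 2-fold in place of 431, of which 370 were shared, and the log2 ratio of Areg was 1.45 in place of 1.53.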

How the data were processed

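Deposited UMI counts per gene and cell (matrices whose file headers name software version 3.1.0) and deposited contig tables were used. Cell Ranger 3.0.2 and the builds mm10 and GRCh38 appear, with no role given, in the submitters' processing notes. The members and gene lists were chosen with earlier results of these data known. Receptor and RNA barcodes were joined on 16 bases, cells needed 300 genes and at most 10% mitochondrial UMIs, and doublet-like cells (2 or more TRB, more than 2 TRA or more than 1 hashtag) were left out. Counts were summed by library, Foxp3 class and clone status. Expanded and single sums were compared in edgeR 4.0.16 (R 4.3.3) with library as a block, over all genes passing its low-count filter; receptor genes and the genes of the rule were not tested. DESeq2 1.42.0 was an alternative. The labels do not say whether libraries held separate mice, so p-values rest on the spread between these libraries, which may be technical. This spread is drawn in large part from all genes together, so a small p does not show that the libraries agree on a gene. The script was tested on simulated data. Called genes of at least 20 CPM with the 8 largest rises and falls and 2 genes of each list were eligible to be named; between treatments, the 8 highest and 8 lowest of at least 30 CPM with intervals that did not overlap, and 2 of each list. Of these, a subset is described, and a gene that met the rule is not reported here. Exact intervals were computed with scipy 1.17.1.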

Additional observations from a re-analysis of the deposited data

Results flagged for a closer look

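In Foxp3-negative cells, the median log2 ratio of expanded over single cells of the T helper 2 list was 0.8 in the anti-PD-1 library and -1.34 in the anti-CTLA-4 library, with 0.55 in the isotype library. For the T helper 17 list this ratio was 0.56 in the anti-PD-1 library and -0.55 in the isotype library. Both lists are singled out because libraries moved in opposite directions under the same contrast. Each value comes from 1 library, and the difference between libraries was not tested.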

How the results depend on the processing

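The share of Cd4-positive receptor cells in expanded clones moved to 34.2% in anti-PD-1 and 40.2% in isotype tumours with clones by TRB alone, to 33.5% and, in anti-CTLA-4, 53.9% with at least 2 Cd4 UMIs, and to 16.6%, 38.8% and 21.2% in anti-PD-1, anti-CTLA-4 and isotype when expanded meant 3 or more cells. With clones lacking any Foxp3-positive cell, an alternative chosen after seeing the data, it was 20.7% in anti-PD-1 and 16.8% in isotype tumours; isotype also gave 27% with doublet-like cells kept and 37.9% with singles whose TRB occurs once. The 24 genes called in Foxp3-negative cells became 47 with TRB alone, 57 with doublet-like cells, 177 without the low-count filter and 0 without the library block, and between 17 and 138 with 1 library left out. Among alternatives chosen after seeing the data they became 40 without cells holding genes of other cells, 114 with clones lacking Foxp3 and 101 per hashtag. The 20 genes called in Foxp3-positive cells became 2 with 2 Cd4 UMIs, 42 with TRB alone, 7 with 3 or more cells, 37 with strict singles, 9 without the largest clones, 0 in DESeq2, 36 without the filter, 4 without the block and, chosen after seeing the data, 1 per hashtag. Thinning was not run there, as under 10 anti-PD-1 cells remained. Counts past 2-fold, main 187 (anti-PD-1), 307 (anti-CTLA-4) and 431 (anti-PD-1, Foxp3-positive), became 289 for the first with a pseudocount of 1 CPM, 74, 144 and 124 at a minimum of 50 CPM, and 462, 601 and 1153 with no minimum. Reversed were Il2 (0.89 with TRB alone, 0.07 with doublet-like cells), Gsto1 in Foxp3-positive cells (-0.13 without cells holding genes of other cells, -0.04 with 3 or more cells), Csf2 in anti-PD-1 against isotype (1.38 with doublet-like cells) and Ccl4 in Foxp3-positive cells (0.19 without the largest clones); the cause was not tested. Named genes kept direction and call in 1056 of 1305 recomputed values, and list medians moved by less than their spread in 431 of 495. No paired analysis was possible because each treatment has 1 single-cell library and the numbered bulk replicates were not used here, apart from the fits that pair expanded and single cells of a library by the block. Depth limits low genes: 1 UMI is a large step in sums of 37 cells.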
